A study of Mus musculus with 4 samples.

Results

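Mature natural killer (NK) cells of the mouse spleen in which no mRNA of the receptor Cd27 was counted were compared between an aged and a young spleen. The cells were chosen on their own measured values, as barcodes with 3 or more unique molecular identifiers (UMIs, which count captured mRNA molecules) over the NK genes Ncr1, Klrb1c, Klre1, Klra8 and Klra4, none of the T cell genes Cd3d, Cd3e and Cd3g, at most 1 over the B cell genes Cd79a and Ms4a1, then no UMI of Cd27 and at least 1 over the maturity genes Itgam, Klrg1, Zeb2 and S1pr5. This gave 315 of 5647 cells in the aged spleen and 833 of 6901 in the young spleen, or 1148 of 35204 cells over the whole series, which also holds an aged and a young brain. CD45hi cells (CD45 is the surface protein of white blood cells) were sorted and profiled by droplet sequencing of mRNA 3' ends. The labels separate the groups by age class, without the ages, the strain or the number of mice, and each group is 1 library. The treatment text carried by all 4 samples has tamoxifen injected 4 weeks before tissue was taken to follow tdTomato+ NK cells, but names no Cre driver and does not say that the sorted cells came from those mice. All differences between the spleens are therefore differences between these libraries with no replicate check, and every 95% interval below covers counting error only.

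NK cells are lymphocytes that kill infected or transformed cells with perforin and granzymes and that release interferon gamma and chemokines. In the mouse they mature in order: Cd27 appears first, CD11b (encoded by Itgam) is then gained, and Cd27 is finally lost as Klrg1 and S1pr5 come on. T-bet (Tbx21) and Zeb2 drive the last step, and S1pr5 is the sphingosine phosphate receptor with which mature NK cells enter the blood. Cells without Cd27 are the terminal stage of this order and are common in spleen and blood.

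The members held 1310050 UMIs in the aged spleen, against 3140989 in the young, with a median of 3885 UMIs and 1658 genes a cell in the former and 3614 UMIs and 1645 genes in the latter. Mitochondrial transcripts took a median of 3.28% and 2.75% of UMIs. Among the 315 aged members, 287 (91.1%) carried a barcode that also held at least 500 UMIs in the young brain library, with a median there of 19.2% of the UMIs in the spleen, and the same was true of 87.1% of all aged spleen cells. In the young spleen 3 of 833 members (0.36%) shared a barcode with the young brain. Leaving out every shared barcode kept 28 aged members with 66724 UMIs and 825 young members, so values without them are imprecise. These 28 also held fewer UMIs a cell on average than all 315 aged members. Such values thus differ in depth as well as in sharing, and the part of each was not tested. A gene of low level can have 0 UMIs in the 28, so a 0 there says little of its level. Values without shared barcodes are given beside many of the results. A single aged member held 29953 UMIs, of which 11363 were haemoglobin and 58 Mki67, and only 25 came from the NK genes of the selection. It supplied 2.29% of the aged members' UMIs, and with it the 10 erythroid genes stood at 9300 counts per 1000000 UMIs (CPM), against 409 without it and 247 in the young members. No doublet caller was run.

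Genes outside the selection were those of NK cells. With every cell reduced at random to 2000 UMIs, Klrd1, the CD94 chain of NK receptors, had a UMI in 78% of aged and 88.5% of young members, and in 1.17% and 3.07% of B cells. The IL-15 receptor chain Il2rb had a UMI in 91.3% and 85.8% of members against 1.54% and 4.24% of B cells. Eomes, a transcription factor of NK cells, had a UMI in 55.3% and 54% against 0.266% and 0.838%. The labels also give neuroblast as the cell type of all 4 samples. The neuroblast genes Dcx, Sox11, Neurod1 and Stmn2 were at 0 UMIs in the members of both spleens, which allows up to 2.29 CPM each in aged and 0.955 CPM in young.

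Markers of other cells were also counted. The 16 B cell genes summed to 1779 CPM in aged and 886 in young members, all 16 with a UMI in both. Free RNA, measured in barcodes of at most 100 UMIs, held 24597 and 14446 CPM of the same genes. Igkc, the antibody light chain, made up 868 of these CPM in aged and 151 in young members. The 16 T cell genes summed to 1068 and 1094 CPM, against 4823 and 5487 in gated T cells and 1308 and 1743 in free RNA. Most of it came from receptor constant genes: Trbc1 stood at 448 and 445 CPM, above the 289 and 370 of free RNA, and Trdc at 75.6 and 97.7, above 23.1 and 57.2. A UMI of Trac, Trbc1, Trbc2 or Trdc was found in 265 aged (84.1%) and 686 young members (82.4%). Cd8a, Cd8b1 and Tcrg-C2 were at 0 in aged members, and Cd4 at 3.82 and 0.955 CPM. The 16 monocyte and macrophage genes came to 230 and 324 CPM with Fcgr1 at 0 in both, and the 12 genes of type 1 innate lymphoid cells to 225 and 163 CPM with Zfp683 at 0 in both. The part of free RNA and of T cells in the results below was not tested.

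Mature Cd27-negative cells were 47.7% of aged spleen NK cells (95% Clopper-Pearson interval 43.9 to 51.6, 315 of 660) and 53.2% in the young (50.7 to 55.7, 833 of 1567). The intervals overlapped at full depth. At 2000 UMIs a cell the shares were 45.8% (41.9 to 49.7) and 59.1% (56.6 to 61.6) and the intervals did not overlap. This left out 16 aged and 62 young NK cells of lower depth. Thinning also drops Cd27 UMIs, and at that depth 79.8% of aged and 75.7% of young NK cells had none. In the young spleen 890 of 1505 then counted as mature, more than the 833 at full depth. Some of these 890 thus had a Cd27 UMI before thinning. NK cells with neither Cd27 nor a maturity UMI made up 13.6% of the aged and 5.68% of the young ones, or 34% and 16.5% at equal depth. The share without a Cd27 UMI was close in both, at 61.4% and 58.8%, whereas at least 1 maturity UMI was found in 73.8% and 86.9%. The share without a Cd27 UMI was lower in deeper cells. Under 3000 UMIs it was 85.4% in aged and 77.9% in young, and at 5000 UMIs or more 43.3% and 35.8%. Whether members held Cd27 mRNA that was not captured was not tested. Cells with both Cd27 and Itgam, the step between, were 9.55% of aged and 17.8% of young NK cells. The share of mature cells was lower in deeper cells: among NK cells under 3000 UMIs it was 69.7% in aged and 70.6% in young, and among those of 5000 UMIs or more it was 25.9% and 30.8%. Among cells from 3000 up to 4000 UMIs it was 68.9% in aged and 67.7% in young. Without shared barcodes the aged share was 59.6% (28 of 47 NK cells), above the young one. The order of the 2 spleens was thus not the same in all settings. The 28 had fewer UMIs a cell on average than all aged members, and the share of mature cells was higher in shallower cells. The part of depth in the 59.6% was not tested.

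**Figure D1:**
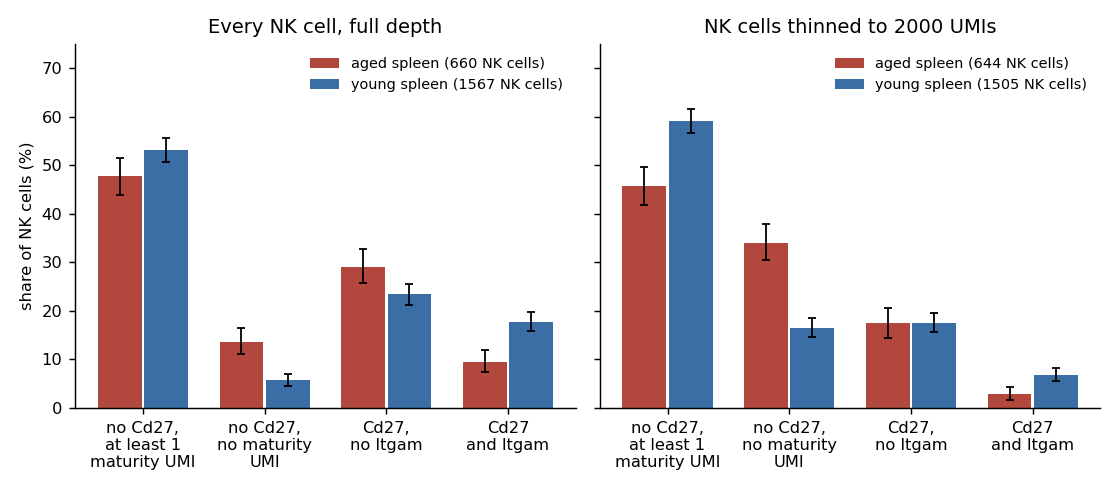
Bars give the percent of NK cells in each class defined by Cd27 and the maturity genes, in the aged and the young spleen, at full depth and with every cell reduced to 2000 UMIs, and error bars are 95% Clopper-Pearson intervals. Mature Cd27-negative cells were 47.7% and 53.2% at full depth and 45.8% and 59.1% at equal depth. Thinning drops Cd27 UMIs, so equal depth counts some cells with Cd27 at full depth as Cd27-negative.

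The genes of the selection are given as a description. Zeb2 had a UMI in 81.3% of aged and 88.1% of young members, Itgam in 50.8% and 52.3%, S1pr5 in 33.7% and 52.1% and Klrg1 in 17.8% and 25.5%. Summed over members, Zeb2 stood at 489 CPM in aged and 643 in young, Itgam at 212 and 241, S1pr5 at 111 and 201 and Klrg1 at 71.8 and 114. Of the NK receptor genes, Ncr1 (NKp46) stood at 385 and 643 CPM, Klrb1c (NK1.1) at 659 and 815 and Klra8 (Ly49H) at 877 and 933. A single maturity UMI admitted 21.3% of aged and 11.8% of young members, which lie just inside the threshold, and 3 or more were found in 59.4% and 72.3%. All 4 maturity genes were seen in 13 aged members (4.13%) and 65 young members (7.8%).

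In both spleens Gzma, Klra9 and Cma1 were highest in members with 3 or more maturity UMIs, and Emb and Xcl1, genes of early NK cells, were lowest there. Granzyme A (Gzma), a serine protease of killing granules, stood at 4642 CPM in aged members with 1 maturity UMI, 4996 with 2 and 7226 with 3 or more. In young members the values were 6426, 7936 and 10241 CPM. At each step the young level was the higher one. The inhibitory Ly49 receptor gene Klra9 stood at 216, 202 and 336 CPM in aged and 160, 333 and 541 in young members. The mast cell protease gene Cma1 stood at 104, 86 and 181 CPM in aged and 80.1, 166 and 279 in young members. Emb, which encodes the adhesion protein embigin, ran the other way, from 460 to 460 to 203 CPM in aged and from 387 to 356 to 169 in young. The chemokine gene Xcl1 stood at 1690, 1466 and 717 CPM in aged and 1121, 1041 and 709 in young. Nfkbia did not follow maturity in the same way: it stood at 1780, 2042 and 2090 CPM in aged members and at 815, 694 and 695 in young, so that every aged class lay above every young one.

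**Figure D2:**
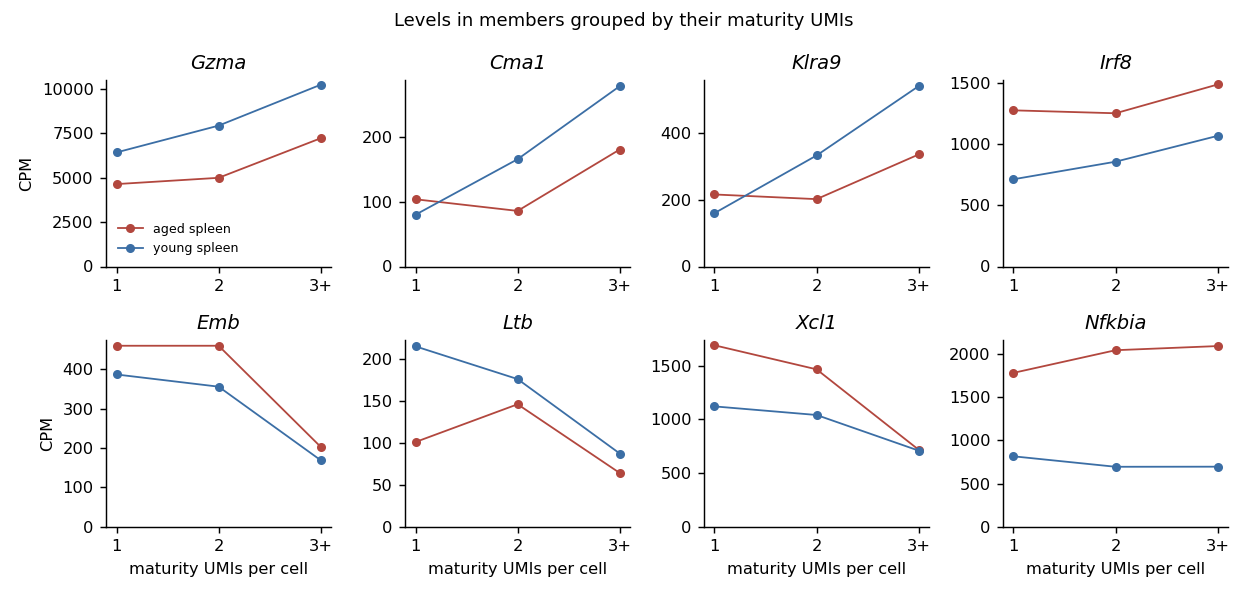
Each panel gives the level of 1 gene in CPM in members with 1, 2 and 3 or more maturity UMIs. The aged and the young spleen are shown, and no intervals are drawn. Gzma ran from 4642 to 7226 CPM in aged and from 6426 to 10241 in young members, whereas Nfkbia was between 1780 and 2090 in aged and between 694 and 815 in young.

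Against NK cells with Cd27 and no Itgam (192 aged, 366 young), members had more of the genes of late maturation. Cd27 and Itgam chose both classes, so the comparison is a description. Cx3cr1, the fractalkine receptor of circulating NK cells, had 23 UMIs in members and 1 in Cd27-positive cells of the aged spleen, a ratio of 19.3 (3.13 to 795), and 202 and 8 in the young, a ratio of 14.3 (7.13 to 33.6). Cma1 was 8.39-fold and 3.51-fold higher, granzyme B (Gzmb) 5.38-fold and 2.61-fold, Gzma 2.43-fold and 1.93-fold and perforin (Prf1) 2.25-fold and 1.91-fold. The transcription factor gene Irf8 was 1.94-fold and 1.79-fold higher. The stem cell factor receptor Kit stood at 0.443 and 0.423 of the level in Cd27-positive cells, the IL-7 receptor Il7r at 0.391 and 0.295, Emb at 0.476 and 0.405 and the lymphotoxin beta gene Ltb at 0.457 and 0.311. Each of these genes differed in the same direction in both spleens. The ranking that listed Cma1, Gzmb, Gzma, Prf1, Irf8, Kit, Emb and Ltb used both spleens, so their shared direction is no separate result.

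The age comparison was made on the members' summed UMIs. Of 7409 genes whose UMIs in the members of both spleens came to 50 or more, 442 (5.97%) were at least 1.5-fold higher in the aged spleen and 967 (13.1%) at least 1.5-fold lower. The median log2 ratio of all genes was -0.13. Scaling the libraries to the median ratio, a factor of 0.914, gave 665 higher and 604 lower, so that 52.4% of the calls were higher instead of 31.4%, and where this scaling moved a list's count of lower genes by 3 or more both counts are given. Without shared barcodes 19.2% of 6583 genes were higher by that size and 19.8% lower, the background for every count given without them. Genes were named by the rule given in the processing account, and Rel, Ifih1, Tbx21, Isg15, Mki67, Fos and Cxcr4, like Cma1, Emb, Ltb and Il7r above, were chosen after their values were seen.

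**Figure D3:**
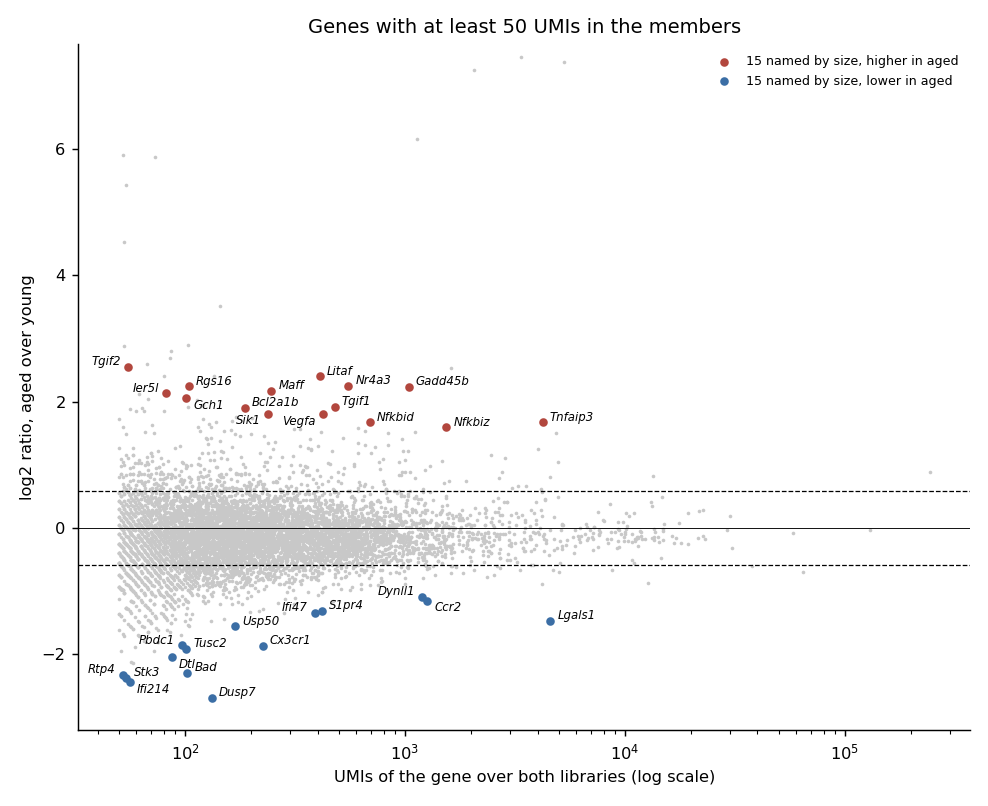
Each point is a gene in the mature Cd27-negative NK cells, with UMIs over both spleens on the log-scaled horizontal axis and the log2 ratio of aged over young on the vertical, dashed lines marking 1.5-fold and genes without a UMI in a library drawn at the limit of 3 counts. Of 7409 genes 442 lay above the upper line and 967 below the lower one, and the genes named by size are coloured, red for 15 higher and blue for 15 lower, among them Tnfaip3 with a ratio of 3.17 and Lgals1 with 0.362.

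NF-kB is a family of transcription factors held in the cytoplasm by inhibitor proteins until a receptor signal has those degraded, after which it switches on, among others, the genes of its own inhibitors. Of the 21 genes of its subunits and feedback, 20 were measured in the members, and 13 were at least 1.5-fold higher in the aged spleen and none lower, against 5.97% higher among all genes. The median log2 ratio was 0.85. Scaling to the median ratio gave 15 higher, leaving out the haemoglobin-rich member gave 13, and the 28 aged members with unshared barcodes gave 8 higher and 6 lower of 19. Cd27-positive NK cells had 9 of 19 at least 1.5-fold higher, T cells 7 of 20 and B cells 5 of 20. Their median log2 ratios were 0.54, 0.46 and 0.16. Over all genes 6.68% were higher by that size in Cd27-positive NK cells, 10.2% in T cells and 6.12% in B cells.

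The inhibitors led in UMI count. Nfkbia, which encodes I-kappa-B alpha, the inhibitor that holds NF-kB in the cytoplasm, had 2639 UMIs in aged and 2226 in young members, or 2014 CPM (1938 to 2093) and 709 CPM (680 to 739), a ratio of 2.84 (2.69 to 3.01). It was 3.03 (2.54 to 3.59) without shared barcodes, 2.2 in Cd27-positive NK cells, 1.56 in T cells and 1.34 in B cells. Tnfaip3, which encodes the ubiquitin-editing inhibitor A20, stood at 1834 CPM (1761 to 1908) and 578 CPM (552 to 605), a ratio of 3.17 (2.98 to 3.37) that became 3.25 (2.7 to 3.9) with the shared barcodes left out. At equal depth 88% of aged and 62.1% of young members had a Tnfaip3 UMI. Nfkbiz, an atypical nuclear I-kappa-B protein gene, stood at 653 and 217 CPM, a ratio of 3.01 (2.72 to 3.34) that became 3.16 with the shared barcodes left out. Its relative Nfkbid stood at 302 and 94.6 CPM, a ratio of 3.19 (2.74 to 3.72). Of the subunits, Rel (c-Rel) stood at 275 and 95.2 CPM, 2.89-fold higher in aged (2.47 to 3.38). Without shared barcodes its ratio was 1.43 (0.645 to 2.74) on 9 aged UMIs. Nfkb1 was 1.42-fold higher, short of 1.5-fold, but 0.547 (0.219 to 1.13) on 7 aged UMIs without shared barcodes. Icam1, an adhesion molecule gene of the same list, stood at 389 and 167 CPM, a ratio of 2.32 (2.05 to 2.63). Its ratio in Cd27-positive NK cells was 1.27, and the 2 age ratios differed by 1.82-fold (1.47 to 2.26). The signal adaptor gene Traf1 was 1.73-fold higher, but 0.725 (0.346 to 1.34) on 10 aged UMIs without shared barcodes.

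**Figure D4:**
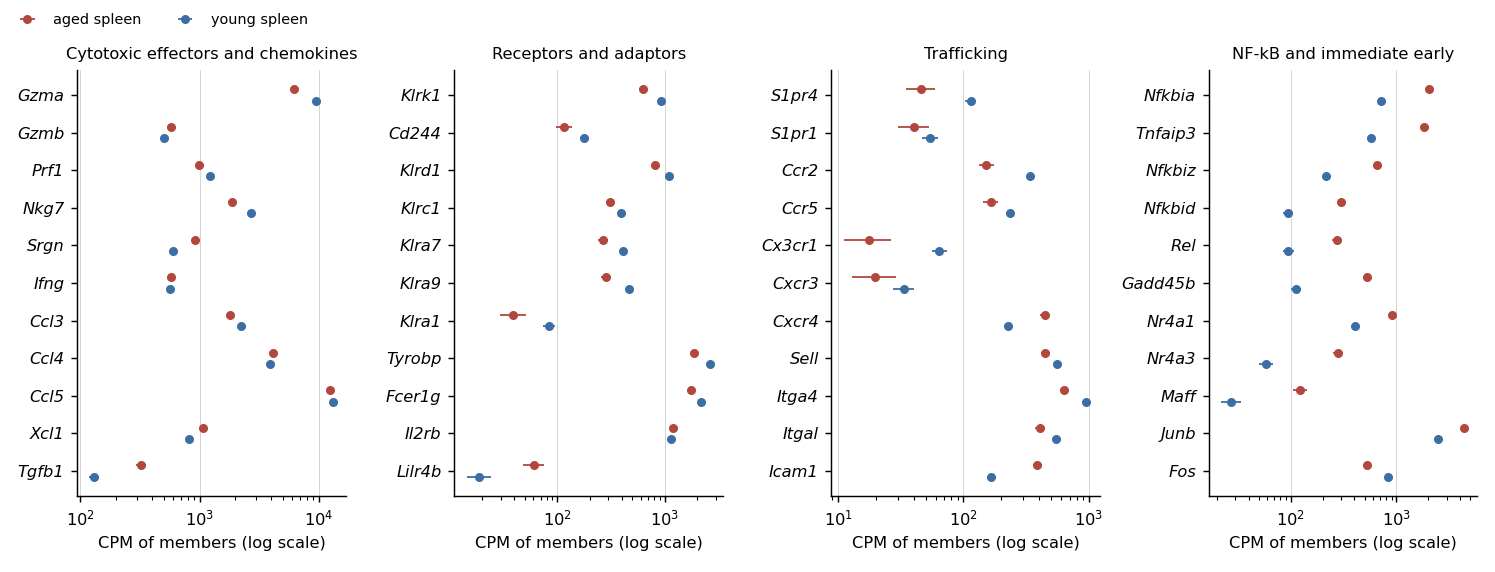
Points give the level of each named gene in CPM on a log axis in mature Cd27-negative NK cells of the aged and the young spleen, and bars are 95% Poisson intervals. Nfkbia lay at 2014 and 709 CPM and Tnfaip3 at 1834 and 578, whereas Gzma lay at 6222 and 9442.

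Letters bound by NF-kB proteins were searched in the promoters of these genes. The letters GGAATTTCC, GGGACTTTC and GGGATTTCC, read on both strands, occurred in 324 of 32851 RefSeq promoters (0.986%), each taken from 250 bases before to 50 after a start site. Of the 16 measured genes of the list with a promoter in the table, 5 held a match, namely Icam1, Nfkb2, Nfkbia, Rel and Tnfaip3, against 315 of 27025 genes (1.17%) in the whole table. No match occurred in 29 immediate early genes or 26 genes of the mature NK programme. The sequences of the inhibitors Nfkbia and Tnfaip3 and of Icam1 are shown because these 3 genes had the most UMIs among the matched ones past 1.5-fold, with the matched letters in capitals and the rest in lower case. They are RefSeq sequences of GRCm38.p6, read 5' to 3' in the direction of the gene: Nfkbia at chr12:55492598-55492897 on the minus strand, Tnfaip3 at chr10:19015361-19015660 on the minus strand and Icam1 at chr9:21015690-21015989 on the plus strand. The match begins 29 bases before the start site in Nfkbia, 24 in Tnfaip3, which has 2 matches, and 153 in Icam1. A match is a description of the letters and no measure of binding.
Nfkbia: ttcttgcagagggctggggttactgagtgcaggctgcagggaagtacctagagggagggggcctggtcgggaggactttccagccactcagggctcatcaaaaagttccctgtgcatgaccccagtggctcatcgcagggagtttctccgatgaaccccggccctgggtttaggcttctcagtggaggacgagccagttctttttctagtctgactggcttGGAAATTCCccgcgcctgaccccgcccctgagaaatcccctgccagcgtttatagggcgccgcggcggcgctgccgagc
Tnfaip3: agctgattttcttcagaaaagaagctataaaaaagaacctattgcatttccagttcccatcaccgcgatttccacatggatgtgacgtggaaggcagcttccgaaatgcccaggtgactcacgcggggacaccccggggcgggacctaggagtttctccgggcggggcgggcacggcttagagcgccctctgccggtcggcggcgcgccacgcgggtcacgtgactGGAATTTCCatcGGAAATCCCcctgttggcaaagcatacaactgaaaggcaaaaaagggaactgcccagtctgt
Icam1: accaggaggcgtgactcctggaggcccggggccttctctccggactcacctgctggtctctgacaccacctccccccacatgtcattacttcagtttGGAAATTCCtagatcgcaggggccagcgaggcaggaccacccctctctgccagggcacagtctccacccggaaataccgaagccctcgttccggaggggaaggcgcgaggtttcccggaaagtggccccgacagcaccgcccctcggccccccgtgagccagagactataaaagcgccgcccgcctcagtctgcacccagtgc

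Immediate early genes are switched on within minutes of receptor signals. Of 36 measured, 19 were at least 1.5-fold higher in the aged members and 1 lower, against 5.97% and 13.1% of all genes. The counts became 21 and 0 when scaled to the median ratio, 20 and 1 without the haemoglobin-rich member, and 19 and 1 of 34 without shared barcodes. The median log2 ratio was 0.67 in members, 0.66 in Cd27-positive NK cells, 0.51 in T cells and 0.31 in B cells. The growth arrest gene Gadd45b stood at 524 CPM (486 to 565) in aged and 112 CPM (100 to 124) in young members, a ratio of 4.69 (4.12 to 5.35) that became 5.07 (3.53 to 7.1) with the shared barcodes left out. In Cd27-positive NK cells it was 2.09-fold higher, and the 2 age ratios differed by 2.25-fold (1.83 to 2.76). Nr4a3, an orphan nuclear receptor gene induced by antigen receptor signals, stood at 279 and 58.6 CPM, 4.77-fold higher in aged (3.98 to 5.72), and had a UMI in 42.7% and 9.51% of members at equal depth. Without shared barcodes it was 2.02 (0.861 to 4.07) on 8 aged UMIs. The small Maf transcription factor gene Maff was 4.49-fold higher (3.43 to 5.9), and 4.33-fold (1.81 to 8.92) on 8 unshared aged UMIs. The Nr4a3 relative Nr4a1 was 2.22-fold higher (2.05 to 2.4), and 2.46-fold without shared barcodes. The AP-1 subunit gene Junb stood at 4347 and 2464 CPM, a ratio of 1.76 (1.7 to 1.83) that became 1.77 with the shared barcodes left out. The AP-1 gene Fos was the member of the list at least 1.5-fold lower, at 529 and 839 CPM, a ratio of 0.631 (0.579 to 0.686). When shared barcodes were left out its ratio was 1.13 (0.868 to 1.45). The interval of Fos thus held 1 without shared barcodes, whereas that of Junb (1.57 to 1.99) stayed above 1.

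Outside these lists, Litaf, which encodes a lysosomal membrane protein, had the largest ratio by its nearer interval bound, once selection genes and genes marked as RNA of other cells were set aside. It had 281 UMIs in aged and 128 in young members, or 214 and 40.8 CPM, a ratio of 5.26 (4.26 to 6.54), and at equal depth 31.7% and 7.6% of members had a UMI. Without shared barcodes the ratio was 4.76 (2.47 to 8.44) on 13 aged UMIs. Ratios of 4.28, 3.52 and 3.44 were found in Cd27-positive NK cells, T cells and B cells. The homeobox repressor gene Tgif1 stood at 224 and 58.9 CPM, a ratio of 3.8, and its paralog Tgif2 at 29.8 and 5.09, a ratio of 5.84. Vegfa, a growth factor gene of blood vessels, was 3.48-fold higher (2.85 to 4.25). The survival gene Bcl2a1b, which has near-identical copies that could share its reads, stood at 87 and 23.2 CPM, and was 3.74-fold higher in aged members and 3.93-fold (1.4 to 8.99) without shared barcodes. The signal regulator gene Rgs16 stood at 52.7 and 11.1 CPM, a ratio of 4.73 (3.1 to 7.32), which was 1.41 (0.0347 to 8.43) on 1 unshared aged UMI. The kinase gene Sik1 stood at 108 and 30.9 CPM, a ratio of 3.51. Gch1, for tetrahydrobiopterin synthesis, and Ier5l had ratios of 4.15 and 4.38, on 64 and 53 aged UMIs. Gch1 was at 1.26 without shared barcodes and Ier5l at 0.887 in members with no T cell receptor constant UMI.

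Many interferon response genes were lower in the aged members. Of 48 measured, none was at least 1.5-fold higher and 23 were at least 1.5-fold lower in aged members, against 13.1% lower among all genes. The median log2 ratio of the list was -0.56. Scaling to the median ratio gave 16 lower, against 8.15% of all genes. Leaving out the haemoglobin-rich member gave 24, and the members without shared barcodes 6 higher and 20 lower of 43. The median was -0.35 in Cd27-positive NK cells, -0.3 in T cells and -0.59 in B cells. Igtp, a GTPase gene induced by interferon gamma, had 7 UMIs in aged and 65 in young members, or 5.34 and 20.7 CPM, a ratio of 0.258 (0.0999 to 0.563). In Cd27-positive NK cells its ratio was 0.953, and none of its aged UMIs in members was in an unshared barcode. Another such GTPase gene, Ifi47, stood at 42 and 107 CPM, a ratio of 0.394 (0.29 to 0.525), and Rtp4 at 3.05 and 15.3 CPM, on 4 aged UMIs. The nuclear body gene Sp100 stood at 278 and 427 CPM, a ratio of 0.65 (0.578 to 0.731) that became 0.524 with the shared barcodes left out. Isg15, Irf1 and Ly6e did not share this: their ratios were 1.14, 1.23 and 1.18. Of 23 genes of MHC class I presentation 3 (13%) were at least 1.5-fold lower, near the 13.1% of all genes, and H2-D1 was at 1.02 and B2m at 0.993.

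The core of the interferon-stimulated response element, GAAAC and GAAA with any 1 base between them, was chosen after the values were seen. It occurred on either strand in 225 of the RefSeq promoters (0.685%) and in 8 of 36 interferon response genes with a promoter, against 214 of 27025 genes (0.792%) in the whole table. The 8 genes did not all have low ratios: Isg15 was at 1.14 and Ifih1 at 1.01. Igtp is shown because it had the lowest ratio of those named by the rule, with the matched letters in capitals. It lies at chr11:58199306-58199605 on the plus strand of GRCm38.p6 and the match begins 34 bases before the start site.
Igtp: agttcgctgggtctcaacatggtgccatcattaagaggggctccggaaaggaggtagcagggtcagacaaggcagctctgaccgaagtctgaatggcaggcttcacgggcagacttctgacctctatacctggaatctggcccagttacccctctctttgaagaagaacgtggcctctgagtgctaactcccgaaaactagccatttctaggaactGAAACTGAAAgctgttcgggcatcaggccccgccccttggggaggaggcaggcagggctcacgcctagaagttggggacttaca

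The mature NK programme holds genes that gain expression as NK cells lose Cd27. Of 31 measured, 13 were at least 1.5-fold lower in aged members and none higher, against 13.1% lower among all genes, with a median log2 ratio of -0.43. The count of 13 was not stable: it was 5 when scaled to the median ratio, 7 without the haemoglobin-rich member, and 8, with 4 higher, without shared barcodes. The median was -0.59 in Cd27-positive NK cells and 0.11 in T cells. Lgals1, which encodes the sugar-binding protein galectin-1, had 600 UMIs in aged and 3974 in young members, or 458 CPM (422 to 496) and 1265 CPM (1226 to 1305), with an aged over young ratio of 0.362 (0.332 to 0.395). Its ratio was 0.41 in Cd27-positive NK cells, 1.14 in T cells and 0.921 in B cells, and 0.617 (0.46 to 0.811) in members without shared barcodes. Cx3cr1 had 23 and 202 UMIs, or 17.6 and 64.3 CPM, a ratio of 0.273 (0.169 to 0.421), and the aged members without shared barcodes held 0 UMIs of it. The membrane protein gene Emp3 was at 0.584 (0.526 to 0.646), but 1.07 (0.769 to 1.44) without shared barcodes.

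Of the 25 cytotoxic granule genes measured, 2 were at least 1.5-fold higher and 2 lower, and the median log2 ratio was -0.00. Gzma stood at 6222 CPM (6088 to 6358) in aged and 9442 CPM (9335 to 9550) in young members, a ratio of 0.659 (0.643 to 0.675). It was 0.672 without the haemoglobin-rich member, 0.896 (0.822 to 0.973) without shared barcodes and 0.524 in Cd27-positive NK cells. Gzmb, the granzyme that triggers caspases, stood at 572 and 505 CPM, a ratio of 1.13 (1.04 to 1.24), while in Cd27-positive NK cells the ratio was 0.55. The 2 age ratios differed by 2.06-fold (1.64 to 2.59). Prf1, which encodes the pore-forming protein, stood at 999 and 1222 CPM, a ratio of 0.818 (0.767 to 0.871) that became 1.3 (1.06 to 1.58), the other direction with the shared barcodes left out. The granule protein gene Nkg7 stood at 1863 and 2727 CPM, a ratio of 0.683 (0.653 to 0.714). The granule proteoglycan gene Srgn stood at 924 and 594 CPM, a ratio of 1.55 (1.44 to 1.67). Dropping shared barcodes put Srgn at 1.46 (1.1 to 1.89) and Nkg7 at 0.885 (0.753 to 1.03). The shares of granule genes past 1.5-fold, 8% each way, were near or below those of all genes, and so was the 4 of 23 lower and none higher without shared barcodes.

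Most secreted factors differed by less than 1.5-fold. Of 12 cytokine and chemokine genes measured, 2 were at least 1.5-fold higher in aged members and none lower, or 2 and 2 of 10 without shared barcodes. Tgfb1, which encodes an inhibitory cytokine, stood at 324 and 131 CPM, a ratio of 2.48 (2.16 to 2.85) that became 3.1 (2.02 to 4.57) with the shared barcodes left out. Its ratio was 1.9 in Cd27-positive NK cells, 1.4 in T cells and 0.946 in B cells. Interferon gamma (Ifng) stood at 576 and 570 CPM, a ratio of 1.01 (0.928 to 1.1). The chemokine gene Ccl5 stood at 12548 and 13233 CPM, Ccl4 at 4124 and 3897 and Ccl3 at 1806 and 2230. The ratio of Ccl3 was 0.81, but 1.31 without shared barcodes.

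Over all genes 5.97% were at least 1.5-fold higher and 13.1% lower. Among 33 activating receptor and adaptor genes, 2 were higher by that size and 7 lower, with a median log2 ratio of -0.38. None was lower by that size when scaled to the median ratio, 3 were without the haemoglobin-rich member, and 9 of 31 were without shared barcodes. Tyrobp, which encodes the signalling adaptor DAP12, stood at 1874 and 2643 CPM, a ratio of 0.709 (0.678 to 0.742). The receptor gene Klrk1 (NKG2D) stood at 624 and 932 CPM, a ratio of 0.669 (0.618 to 0.723), and Klrd1 at 810 and 1092, a ratio of 0.741. Of 20 inhibitory receptor and phosphatase genes 1 was at least 1.5-fold higher and 6 lower, or 2 and 3 when scaled to the median ratio. The Ly49 receptor genes Klra1, Klra3, Klra7 and Klra9 had ratios of 0.463, 0.656, 0.659 and 0.609. These genes are near-identical copies, so reads may be split between them. Klra1 was at 0.994 in Cd27-positive NK cells and 3 of its aged UMIs were unshared, and Klra9 at 0.965 in members without shared barcodes. Lilr4b, an immunoglobulin-like receptor gene of this list, was at 60.3 and 18.8 CPM, a ratio of 3.21 (2.26 to 4.58), but 0.817 (0.0203 to 4.74) on 1 aged UMI without shared barcodes.

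Migration and adhesion genes were mixed, with 3 of 26 at least 1.5-fold higher and 5 lower, against 5.97% and 13.1% of all genes. Without shared barcodes the counts were 3 and 10 of 25. Ccr2, the receptor for monocyte chemoattractants, stood at 152 and 338 CPM, a ratio of 0.449 (0.384 to 0.523), with 0.416 in Cd27-positive NK cells and 0.565 in T cells, and 0.133 (0.0274 to 0.389) on 3 unshared aged UMIs. The sphingosine phosphate receptor gene S1pr4 stood at 45.8 and 114 CPM, a ratio of 0.403 (0.301 to 0.531). The integrin gene Itga4 stood at 631 and 950 CPM, a ratio of 0.664, and at 0.475 (0.32 to 0.679) without shared barcodes. Cxcr4, the receptor that keeps lymphocytes in bone marrow, stood at 447 and 226 CPM, a ratio of 1.97 (1.77 to 2.2) that became 2.73 with the shared barcodes left out. Klf2, a transcription factor gene for exit from tissue, was at 1.08 in all members but 2.08 (1.82 to 2.36) without shared barcodes.

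The T-box factor genes Tbx21 and Eomes were close between the spleens. Tbx21 stood at 171 and 181 CPM, a ratio of 0.947 (0.808 to 1.11), and Eomes at 424 and 443, a ratio of 0.958 (0.866 to 1.06). Of 33 maturation transcription factors 6 were at least 1.5-fold higher and 2 lower, against 5.97% and 13.1% of all genes. Without shared barcodes the counts were 10 and 6 of 31. Bhlhe40, a repressor gene tied to cytokine production, stood at 1027 and 477 CPM, a ratio of 2.16 (2 to 2.32). The histone demethylase gene Kdm6b stood at 463 and 161 CPM, a ratio of 2.88 (2.55 to 3.24) that became 3 with the shared barcodes left out. Nfil3, needed for NK cells to form, stood at 156 and 76.7 CPM, a ratio of 2.03, with 3.73 in T cells and 3.77 in B cells, and 1.37 (0.547 to 2.88) on 7 aged UMIs once shared barcodes were dropped. Id2, the inhibitor of E proteins, stood at 852 and 1249 CPM, a ratio of 0.682 (0.638 to 0.729). Of 39 cytokine receptor and signalling genes 8 were at least 1.5-fold higher and 2 lower, or 5 and 8 of 37 without shared barcodes. The kinase gene Pim1 was at 1537 and 645 CPM, 2.38-fold higher in aged (2.24 to 2.54), with 2.57-fold when shared barcodes were left out, while Il2rb was at 1190 and 1146. The cytokine signalling inhibitor gene Cish stood at 30.5 and 7 CPM, a ratio of 4.36 (2.53 to 7.7), with 1 unshared aged UMI.

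**Figure D5:**
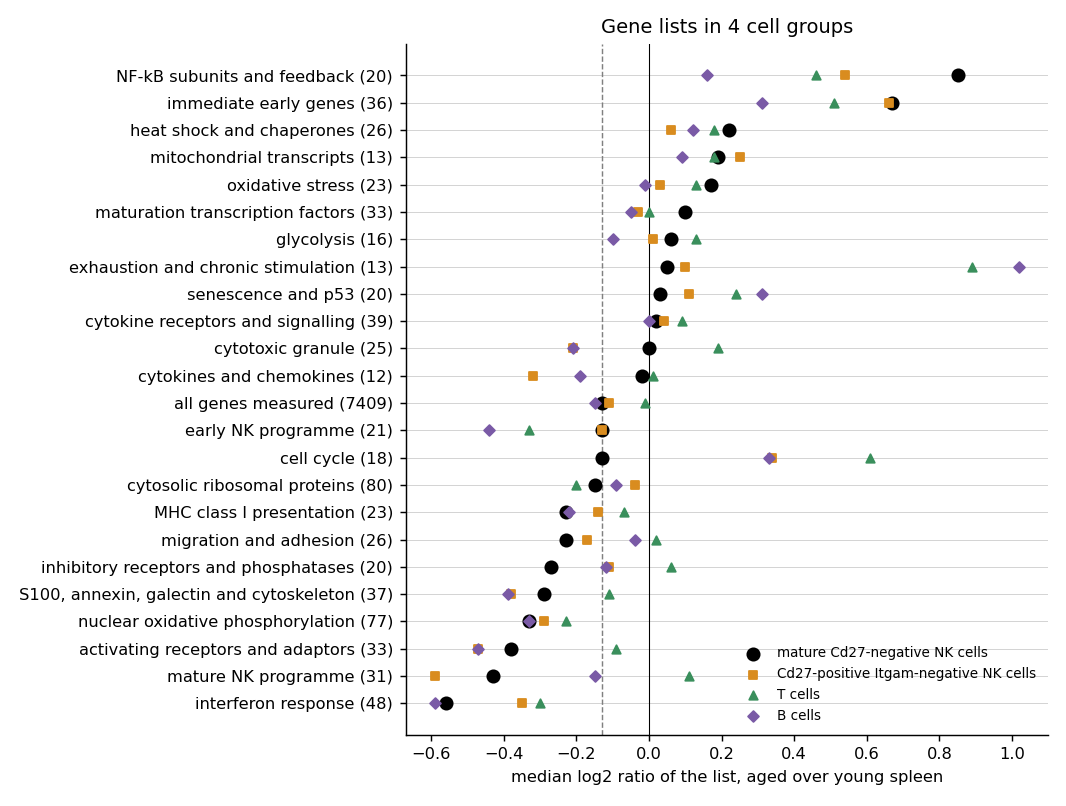
Points give the median log2 ratio of aged over young for each gene list in mature Cd27-negative NK cells and in the other cells of the same spleens, with the number of genes measured in the members in parentheses and a dashed line at the median of all genes in the members (-0.13). NF-kB genes (0.85) and immediate early genes (0.67) lie highest in the members, and interferon response genes (-0.56) lowest.

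Each of the remaining lists had at most 6 genes at least 1.5-fold higher. Over all genes 5.97% were higher by that size and 13.1% lower. Early NK genes had 2 of 21 higher by that size and 1 lower, but 1 of 20 higher and 10 lower without shared barcodes. Kit stood at 49.6 and 19.7 CPM, a ratio of 2.51 (1.75 to 3.62). The 28 unshared aged members held 0 UMIs of it, but their 66724 UMIs are too few to place its level. Of 26 heat shock and chaperone genes 5 were higher by that size and 1 lower, or 9 and 3 of 25 without shared barcodes. Hspa1a, an inducible chaperone gene, stood at 280 and 116 CPM and had a UMI in 8.89% and 4.32% of members. Its ratio of 2.42 (2.09 to 2.81) was 9.1 (6.96 to 11.8) without shared barcodes and 0.86 in members with no T cell receptor constant UMI. Of 23 oxidative stress genes 6 were higher, or 3 higher and 1 lower without the haemoglobin-rich member and 2 higher and 7 lower of 20 without shared barcodes. Of 18 cell cycle genes 3 were higher and 2 lower, or 1 and 5 of 16 without it. Mki67, the proliferation marker, went from a ratio of 6.97 to 0.669 when that 1 barcode was left out. Senescence and p53 genes had 2 of 20 higher and 2 lower. Cdkn1a, which encodes the cell cycle inhibitor p21, stood at 155 and 62.7 CPM, a ratio of 2.47 (2.02 to 3.02) that became 1.19 on 5 aged UMIs with the shared barcodes left out. Exhaustion genes had 4 of 13 higher, among them Nr4a1, Nr4a2 and Nr4a3, which also belong to the immediate early genes, or 3 higher and 6 lower without shared barcodes. Of 16 glycolysis genes none differed by 1.5-fold, nor did any of 13 mitochondrial transcripts. Cytoskeleton genes with the S100, annexin and galectin families had 6 of 37 lower and none higher, or 3 when scaled to the median ratio and 10 without shared barcodes. Tmsb4x, which encodes an actin-binding peptide, stood at 9973 and 16250 CPM, a ratio of 0.614 (0.602 to 0.626). Nuclear oxidative phosphorylation genes had 4 of 77 lower and cytosolic ribosomal protein genes 1 of 80.

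For Dusp7 and Bad, among other genes of few aged UMIs, the age ratio was farther from 1 in members than in Cd27-positive NK cells. The genes of this paragraph were picked for low ratios in members, which alone favours ratios nearer 1 in other cells. The difference between the 2 groups of NK cells is therefore no separate result. Dusp7, a phosphatase gene of the MAP kinase pathway, had 8 UMIs in aged and 124 in young members, or 6.11 and 39.5 CPM, a ratio of 0.155 (0.0653 to 0.314). In Cd27-positive NK cells it was 0.87, and the 2 age ratios differed by 0.178-fold (0.0763 to 0.414). T cells and B cells had Dusp7 ratios of 0.575 and 0.599. The cell death gene Bad stood at 6.11 and 29.9 CPM, a ratio of 0.204 (0.0856 to 0.419), with 0.787 in Cd27-positive NK cells. Both rest on 8 aged UMIs, none of them unshared. Other genes at least 1.5-fold lower on few aged UMIs were Ifi214, Stk3, Dtl, Tusc2, Pbdc1 and Usp50, with ratios of 0.184, 0.192, 0.243, 0.263, 0.276 and 0.34 on 4 to 21 aged UMIs. In Cd27-positive NK cells their ratios were 0.608, 1.14, 0.684, 0.89, 0.926 and 0.337. The dynein light chain gene Dynll1 stood at 150 and 318 CPM, a ratio of 0.471 (0.402 to 0.549), and at 0.661 (0.36 to 1.11) without shared barcodes.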

How the data were processed

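The deposited files hold raw UMI counts per gene and barcode for 4 libraries, unfiltered, with 31053 genes each. Per the labels' protocols they were made with the 10x 3' v2 kit and sequenced on a NextSeq500 to at least 50000 reads a cell, although the 6794880 barcodes listed per file are the number of the later v3 chemistry. Per the file headers the counting software was of version 3.1.0 and the gene identifiers are of mouse, but Cell Ranger 1.3.1 and the human build GRCh38 stand in the submitters' processing notes. The sources used here do not give the mouse build. Library totals were 26384220 to 57011537 UMIs.

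Cells had at least 500 UMIs, at least 250 genes and at most 10% mitochondrial UMIs. Members' UMIs were summed per library and divided by the total (CPM). Poisson, Clopper-Pearson and exact conditional ratio intervals at 95% were computed, and with 1 library a group no test across libraries was possible. Genes were compared where the 2 sums together reached 50 UMIs, and called at 1.5-fold. Thinning drew 2000 UMIs a cell. No doublet caller was run, and an alternative left out cells of most UMIs. Named genes are the 15 each way with the interval bound farthest from 1 (leaving out selection, ribosomal, sex and unnamed genes and RNA of other cells), up to 6 genes of most UMIs and 3 of largest change per list, and the markers. The members and the gene lists were chosen with earlier results of these data known. Scripts were tested on simulated data and run with Python 3.11.15, numpy 2.4.6, scipy 1.17.1, pandas 2.3.3 and matplotlib 3.10.9.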

Additional observations from a re-analysis of the deposited data

Results flagged for a closer look

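A signal appeared in data that the comparison of the spleens did not use. Of the barcodes of the 315 aged members, 287 also held at least 500 UMIs in the young brain library, whereas 3 of the 833 young members shared a barcode with that library. None of the 287 had more UMIs in the young brain than in the aged spleen. The same was found for 184 Cd27-positive NK cells (95.8%) and 1807 B cells (94.3%) of the aged spleen, and for 15 of 6901 cells (0.217%) of the young spleen. Values without these barcodes are given in the report for most of the fixed gene lists and for many, but not all, of the named genes.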

How the results depend on the processing

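The age comparison was repeated under 14 alternatives, 12 of them planned and 2 chosen after seeing the data. Over these, 1864 gene ratios stayed within their counting interval, 378 moved beyond it and 10 reversed. Only ratios past 1.5-fold at first were counted as reversed. Ratios short of that also turned without shared barcodes, among them those of Prf1, Ccl3, Irf1, Nfkb1, Zeb2, Fcer1g, Il18rap and Rgs1. Of the genes listed, only Prf1 (1.06 to 1.58) and Ccl3 (1.13 to 1.51) had an interval there that did not hold 1. Fos, which was not among the ratios repeated, turned as well, to a ratio whose interval held 1. Of the 30 genes named by size, 29 kept their direction and 27 stayed past 1.5-fold in every setting that gave a value; the exceptions were Rgs16, Ier5l and Gch1. No value was computed where a library had 0 UMIs of a gene. The aged share of mature cells among NK cells was 37.6% with at least 2 maturity UMIs, 75.8% (50 of 66) with no T cell receptor constant UMI, 59.6% without shared barcodes and 58.3% for cells from 3000 up to 5000 UMIs. The young share was 46.9%, 71% and 56.4% under the first, second and last of these, and 59.1% when thinned. Genes at least 1.5-fold higher numbered 665 under median-of-ratios scaling, 155 of 2156 (7.19%) with no T cell receptor constant UMI, 1262 of 6583 without shared barcodes, 745 of 9117 with a minimum of 20 UMIs a gene and 2065 of 13900 with a minimum of 1. Genes lower numbered 604 under that scaling, 383 (17.8%) with no T cell receptor constant UMI and 1997 with a minimum of 1. Fewer members entered the sums without shared barcodes and without T cell receptor UMIs. Without shared barcodes the ratios of Cd48 (1.02), Traf1 (0.725), Skil (0.756), Emp3 (1.07), Lilr4b (0.817), Psme2 (1.19) and Cks2 (0.821) reversed. The interval of each of these held 1, so their direction without shared barcodes is not settled. With no T cell receptor constant UMI the ratios of Ier5l (0.887), Klra3 (1.04) and Hspa1a (0.86) reversed. The cause of the reversals was not tested. No paired analysis was possible because each group is 1 library. Depth limits genes of few UMIs, and a difference between these libraries cannot be told apart from one between mice, sorts or runs.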
